A study of Mus musculus with 8 samples.

Results

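The transcriptional response of the Set7 knockout heart to isoproterenol was described by comparing the 2 libraries of knockout mice given isoproterenol with the 2 libraries of knockout mice given saline. These 4 libraries were taken by their group labels, Set7KO_ISO and Set7KO_Sal, from the 8 libraries of the study. The remaining 4 libraries came from WT mice that received the same 2 treatments, and they served here only to set the knockout response beside that of the WT heart. Isoproterenol was injected under the skin at 60 mg/kg for 14 days. Both knockout groups carried a deletion of Set7 in every tissue, from crosses of heterozygous mice, so by their labels the groups compared share the deletion and differ in the drug. The labels give no age, sex or strain, and they do not say that the libraries of a group came from separate animals. The p-values therefore measure only the spread between these samples, which may be technical. RNA was taken from whole heart, and the values are read counts per gene, scaled here to CPM, the counts of a gene relative to the size of its library.

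Isoproterenol is a synthetic catecholamine that activates beta-adrenergic receptors, and sustained dosing in mice is a standard model of cardiac hypertrophy and interstitial fibrosis. Beta-receptor signalling runs through the stimulatory G protein and cyclic AMP to protein kinase A, which acts on calcium handling and contraction, while fibroblasts lay down collagen as the heart remodels. Set7, the product of Setd7, adds a methyl group to lysine residues of histone H3 and of several other proteins, transcription factors among them.

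The counts of Setd7 followed the genotype labels. Its level was 4.45 and 5.70 CPM in the knockout saline libraries and 3.79 and 3.92 CPM in the knockout isoproterenol libraries, against 43.7 and 43 CPM in WT saline and 58.1 and 72.6 CPM in WT isoproterenol libraries. Counts are per gene and do not show which exons the remaining reads came from. The 4 knockout libraries held 28644413 and 51705705 counts after saline and 34294082 and 28078942 counts after isoproterenol, so that 3 counts corresponded to 0.0598 to 0.110 CPM. Cardiac myosin was abundant in all of them, with Myh6, the fast adult heavy chain, at 35991 and 44452 CPM under saline and 44571 and 39966 CPM under isoproterenol. The saline libraries differed from each other more than the isoproterenol libraries did. Among 12441 genes with a mean of at least 2 CPM, the CPM differed by more than 2-fold between the saline libraries in 2163 genes and between the isoproterenol libraries in 533. Saline replicate 2 stood apart. On the first principal component, which held 44.4% of the variance of all 8 libraries, it scored 61.0, close to the WT isoproterenol libraries at 65.8 and 57.2, whereas the other 5 libraries lay between -69.8 and -17.5. For a GC measure, genes were divided into 5 classes by GC content. It is the median log2 difference from the all-library average in the highest class minus that in the lowest. This measure came to -0.91 in saline replicate 2 and to 0.36 in saline replicate 1, with 0.19 and 0.64 in the isoproterenol libraries. The title of saline replicate 2 also carries the letter that marks the WT saline titles, whereas its partner carries a letter of its own.

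With all libraries, no gene passed an adjusted p of 0.05 in the knockout comparison (edgeR quasi-likelihood test, Benjamini-Hochberg, 0 of 17636 genes, 0%). The lowest adjusted p was 0.0996. At an unadjusted p under 0.05 there were 644 genes higher (3.65%) and 1060 genes lower (6.01%) after isoproterenol. With offsets for gene GC content and length in the same test, that split turned to 959 higher and 659 lower. The 2 libraries of each group did not overlap in 2819 genes that were higher (16%) and 3301 that were lower (18.7%). DESeq2 called 101 of 17294 genes (0.584%), 52 higher and 49 lower. The edgeR count was 486 without saline replicate 1 and 1 without saline replicate 2. In the groups below, genes with an unadjusted p under 0.05 are counted as higher or lower before adjustment. Only the counts with all libraries are read against these shares of all genes. Counts with a saline library left out come from other fits, in which the shares over all genes differ, and show only how far a count moved. Levels are given as saline replicates 1 and 2, then isoproterenol replicates 1 and 2, and a value with ± in parentheses is the log2 fold change of isoproterenol over saline with its standard error. Where leaving out a saline library turned the sign of a fold change or median, or moved it or a count by over 1.5 times, the values follow in square brackets, first without saline replicate 1 and then without saline replicate 2, unless the sentence itself gives them. No gene is described as changed, because none passed the adjusted threshold with all libraries.

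**Figure D1:**
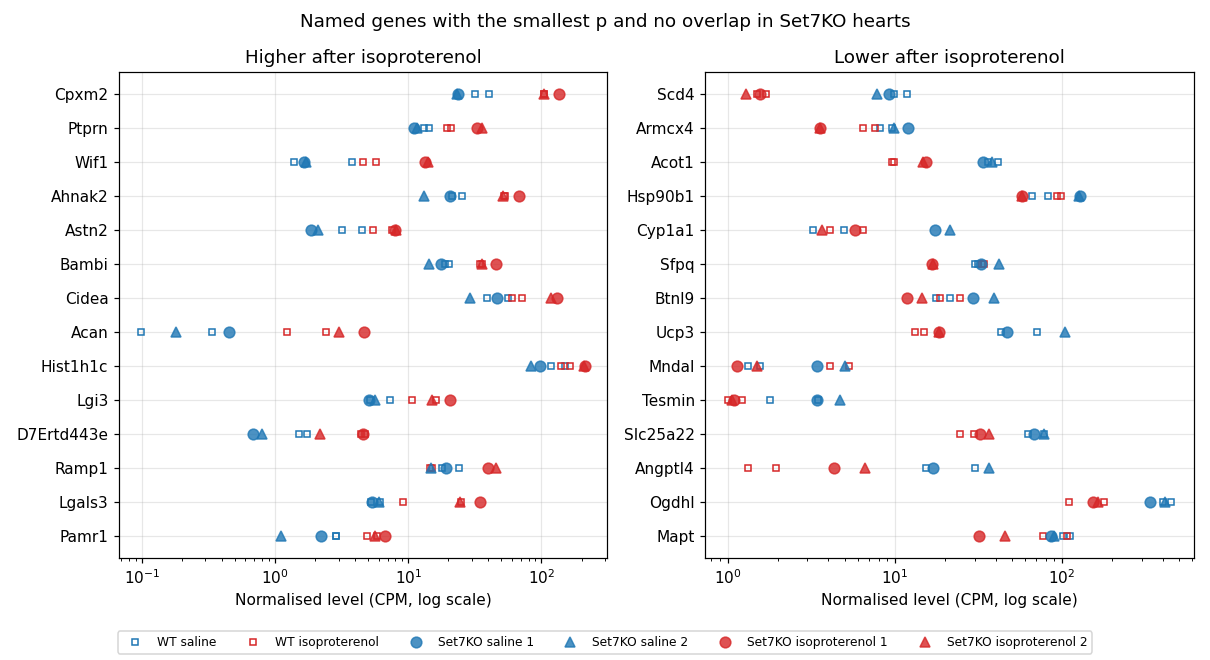
Level of the named genes among the 15 higher and 15 lower genes with the smallest p in the knockout comparison, in CPM on a log axis, 1 point per library. Filled blue and red symbols are knockout saline and isoproterenol libraries, circles replicate 1 and triangles replicate 2, and open squares are WT libraries. By the choice of these genes, blue and red filled symbols do not overlap.

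The genes with the smallest p among those higher after isoproterenol included secreted and matrix proteins. Cpxm2, a secreted carboxypeptidase-like protein at chr7:132032687-132154739 (GRCm38), stood at 23.6 and 23.3 CPM in the saline libraries and at 135 and 104 CPM in the isoproterenol libraries. The saline values were nearly equal, and both isoproterenol values lay far above them. The log2 fold change was 2.35 ± 0.23 (SE), a 5.10-fold difference (edgeR adjusted p = 0.0996), and it was 2.36 and 2.34 with saline replicate 1 or 2 left out. Wif1 binds Wnt ligands outside the cell and blocks their signal. Its level was 1.66 and 1.71 CPM under saline and 13.4 and 14 CPM under isoproterenol, a log2 fold change of 3.02 ± 0.45 (edgeR adjusted p = 0.284). Both libraries of each group were close together, and the size was 3.0 and 3.05 without either saline library. Acan encodes aggrecan, the large proteoglycan of cartilage. It was near the detection limit after saline, at 0.455 and 0.179 CPM, and reached 4.67 and 3 CPM under isoproterenol (log2 fold change 3.65 ± 0.65). Lgals3, which encodes galectin-3, a lectin made by macrophages and injured tissue, stood at 5.33 and 6.08 CPM under saline and 34.7 and 24.4 CPM under isoproterenol (log2 fold change 2.37 ± 0.46). Pamr1, named for its association with muscle regeneration, stood at 2.21 and 1.12 CPM against 6.66 and 5.63 CPM (1.90 ± 0.37). In each of these the lowest isoproterenol library exceeded the highest saline library, which the choice of genes required.

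Membrane proteins and receptors made up a second set of the higher genes. Ptprn, a phosphatase-like protein of dense-core secretory vesicles, was at 11 and 11.6 CPM under saline and 32.7 and 35.5 CPM under isoproterenol, a log2 fold change of 1.59 ± 0.21 (edgeR adjusted p = 0.197). Ramp1 pairs with the calcitonin receptor-like receptor to form the receptor for the vasodilator CGRP. It was at 19.4 and 14.9 CPM against 39.7 and 45.5 CPM (1.32 ± 0.25). Bambi, a decoy receptor that limits TGF-beta signalling, stood at 17.6 and 14.3 CPM under saline and at 45.8 and 36 CPM under isoproterenol (1.36 ± 0.23). Astn2, a membrane protein studied in neuronal migration, was at 1.85 and 2.09 CPM against 7.98 and 8.12 CPM (2.02 ± 0.31). Cidea coats lipid droplets, and its level was 46.5 and 29.3 CPM under saline and 132 and 119 CPM under isoproterenol (1.72 ± 0.29). Hist1h1c, a linker histone, was the most abundant of the 15, at 98.4 and 83.5 CPM against 213 and 208 CPM (1.21 ± 0.22). Ahnak2, Lgi3 and D7Ertd443e were also among the 15, with log2 fold changes of 1.83 ± 0.28, 1.73 ± 0.32 and 2.19 ± 0.41.

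Lipid and mitochondrial enzymes stood among the 15 lower genes. Scd4, a heart-enriched stearoyl-CoA desaturase, was at 9.23 and 7.77 CPM under saline and 1.57 and 1.28 CPM under isoproterenol. All 4 values were tight within their group, and the log2 fold change was -2.57 ± 0.29, a 5.95-fold difference (edgeR adjusted p = 0.128). Acot1, which splits long-chain acyl-CoA in the cytosol, stood at 33.5 and 37.9 CPM against 15.4 and 14.7 CPM (-1.24 ± 0.21). Ucp3, the mitochondrial uncoupling protein of muscle, stood at 47 and 104 CPM under saline and 18.4 and 18.3 CPM under isoproterenol (-2.04 ± 0.40). The saline libraries were unequal here, and the difference was -2.50 without replicate 1 and -1.35 without replicate 2. Angptl4, a secreted inhibitor of lipoprotein lipase, showed the same inequality, at 16.8 and 36.5 CPM under saline against 4.34 and 6.62 CPM under isoproterenol (-2.29 ± 0.48; -2.74 and -1.62 without saline replicate 1 or 2). Slc25a22, a mitochondrial glutamate carrier, was at 67.6 and 77.5 CPM against 32.4 and 36.7 CPM (-1.07 ± 0.22). Ogdhl, related to a subunit of the oxoglutarate dehydrogenase complex, was at 334 and 412 CPM against 154 and 164 CPM (-1.23 ± 0.27).

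The other lower genes had varied roles. Cyp1a1, the classical target of the aryl hydrocarbon receptor, stood at 17.3 and 21.4 CPM under saline and 5.81 and 3.66 CPM under isoproterenol (-2.03 ± 0.37). The WT libraries of both treatments, at 3.25 and 4.94 CPM under saline and 4.11 and 6.44 CPM under isoproterenol, lay in the range of the knockout isoproterenol libraries or just beyond it, so the knockout saline libraries were the high ones. Sfpq, a splicing factor of nuclear paraspeckles, was at 32.9 and 42.1 CPM against 16.6 and 16.9 CPM (-1.16 ± 0.21). Btnl9, a butyrophilin-like membrane protein, was at 29.4 and 39.2 CPM against 11.8 and 14.5 CPM (-1.38 ± 0.27). Mapt, which encodes the microtubule protein tau, was at 85.8 and 89.5 CPM against 31.7 and 45.7 CPM (-1.18 ± 0.26). Armcx4, Tesmin and Mndal had log2 fold changes of -1.63 ± 0.26, -1.92 ± 0.40 and -1.69 ± 0.34. DESeq2 called 30 of the 30, against 101 of 17294 genes in all (0.584%). The 30 were picked by small p in the same counts, so their DESeq2 count largely follows from that choice. The edgeR adjusted p of the 30 genes ran from 0.0996 to 0.369. The 1 gene called without saline replicate 2 was an identifier of Sept2, ENSMUSG00000116048, which was listed at 0 and 27.0 CPM under saline and at 29.6 and 21.3 CPM under isoproterenol. A second identifier of Sept2 at the same locus, ENSMUSG00000026276, was at 35.2 and 19.0 CPM under saline and 6.84 and 7.98 CPM under isoproterenol, so reads may be split between overlapping gene models. Sept2 was named after its values were seen.

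Few genes of the beta-adrenergic pathway itself passed even the unadjusted threshold. Of 25 tested members of the adrenergic list, 0 were higher and 1 lower before adjustment [1 and 4, 0 and 0], and the median log2 fold change was 0.04 [0.05, 0.13], against -0.04 over all genes tested. Adrb1, the main beta-receptor of cardiomyocytes, was at 14.3 and 15.6 CPM under saline and 13.4 and 11.3 CPM under isoproterenol, a log2 fold change of -0.28 ± 0.27 (edgeR adjusted p = 0.755). Rgs2, which shortens G protein signalling, was the 1 lower member, at 9.95 and 26.9 CPM under saline and 7.11 and 11.1 CPM under isoproterenol (-1.03 ± 0.44). Its groups overlapped, and the value was -1.57 without saline replicate 1 and -0.13 without replicate 2. None of 13 phosphodiesterases, which break down cyclic nucleotides, had an unadjusted p under 0.05 with all libraries.

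The usual markers of cardiac load were uneven. Nppa, which encodes atrial natriuretic peptide, was at 359 and 195 CPM under saline and 567 and 231 CPM under isoproterenol, with overlapping groups (log2 fold change 0.52 ± 0.73 [1.03, 0.16]). Nppb, its ventricular relative, was at 398 and 67.5 CPM against 210.4 and 181 CPM, and Acta1, the skeletal actin of the fetal heart, at 919 and 75.9 CPM against 547 and 192 CPM. In both genes the saline libraries spanned the isoproterenol libraries, and the log2 fold change of Nppb was 1.54 without saline replicate 1 and -1.02 without replicate 2. Ankrd1, a stretch-responsive muscle protein, was at 1241 and 407 CPM under saline and 2527 and 2147 CPM under isoproterenol (1.5 ± 0.50 [2.52, 0.92]; edgeR adjusted p = 0.475). Fhl1, a LIM protein of the sarcomere, was at 70.1 and 105 CPM against 447 and 214 CPM (1.91 ± 0.59). The metallothionein Mt2 was at 20.9 and 40.6 CPM against 63 and 97.7 CPM (1.38 ± 0.39). These 3 did not overlap between the groups. Xirp2, an actin-binding protein of the intercalated disc, pointed the other way, at 136 and 198 CPM against 71.8 and 111 CPM (-0.87 ± 0.33 [-1.11, -0.57], and -0.25 with GC and length offsets). Of 21 tested hypertrophy and stress genes, 3 were higher and 1 lower before adjustment [7 and 1, 3 and 3], and the median was 0.30 [0.50, 0.02].

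Contractile genes had a median near that of all genes, and several calcium genes turned on saline replicate 2. Myh7, the slow myosin heavy chain, was at 6475 and 6944 CPM under saline and 5991 and 7135 CPM under isoproterenol (-0.03 ± 0.18 [-0.08, 0.02]). The 24 tested sarcomere genes had a median of -0.06 [0.12, 0.06], and 2 were higher and 1 lower before adjustment [3 and 2, 0 and 2]. Mybpc3, the cardiac myosin-binding protein, was at 6713 and 6358 CPM against 9317 and 8599 CPM (0.45 ± 0.16). Nexn, an actin-binding protein of the Z-disc, was the lower one, at 57.7 and 175 CPM under saline and 20.9 and 40.4 CPM under isoproterenol (-1.93 ± 0.51 [-2.52, -0.91]; -1.16 with the offsets). Among 17 calcium cycling genes, Atp2a2, the calcium pump of the sarcoplasmic reticulum, was at 6358 and 17943 CPM against 9202 and 5384 CPM, and its inhibitor Pln at 649.8 and 1547 CPM against 744 and 657 CPM. Saline replicate 2 was the high library in both, and the groups overlapped. Trdn, which anchors the calcium store protein to the ryanodine receptor, was at 15.3 and 67.6 CPM under saline and 14.2 and 12.4 CPM under isoproterenol, with a log2 fold change of -2.35 without saline replicate 1 and -0.20 without replicate 2.

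Ion channel genes were split between higher and lower. Of 22 tested, 3 were higher and 2 were lower at an unadjusted p under 0.05 [4 and 6, 5 and 0]. Kcnq1, the pore of the slow delayed rectifier, was at 69.4 and 59.9 CPM under saline and 113 and 106 CPM under isoproterenol (0.76 ± 0.23). Gja5, the connexin of the conduction system and atria, was at 9.36 and 8.39 CPM against 15.8 and 17 CPM (0.89 ± 0.26), and Hcn4, the pacemaker channel, at 23 and 15.6 CPM against 37.7 and 34.4 CPM (0.90 ± 0.33). Lower were Kcnip2, a subunit of the transient outward current, at 279 and 376 CPM against 198 and 232 CPM (-0.61 ± 0.25 [-0.80, -0.37]), and Scn4b, a sodium channel subunit, at 22.8 and 31.1 CPM against 14.3 and 15.2 CPM (-0.87 ± 0.34). In these 5 genes the groups did not overlap.

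**Figure D2:**
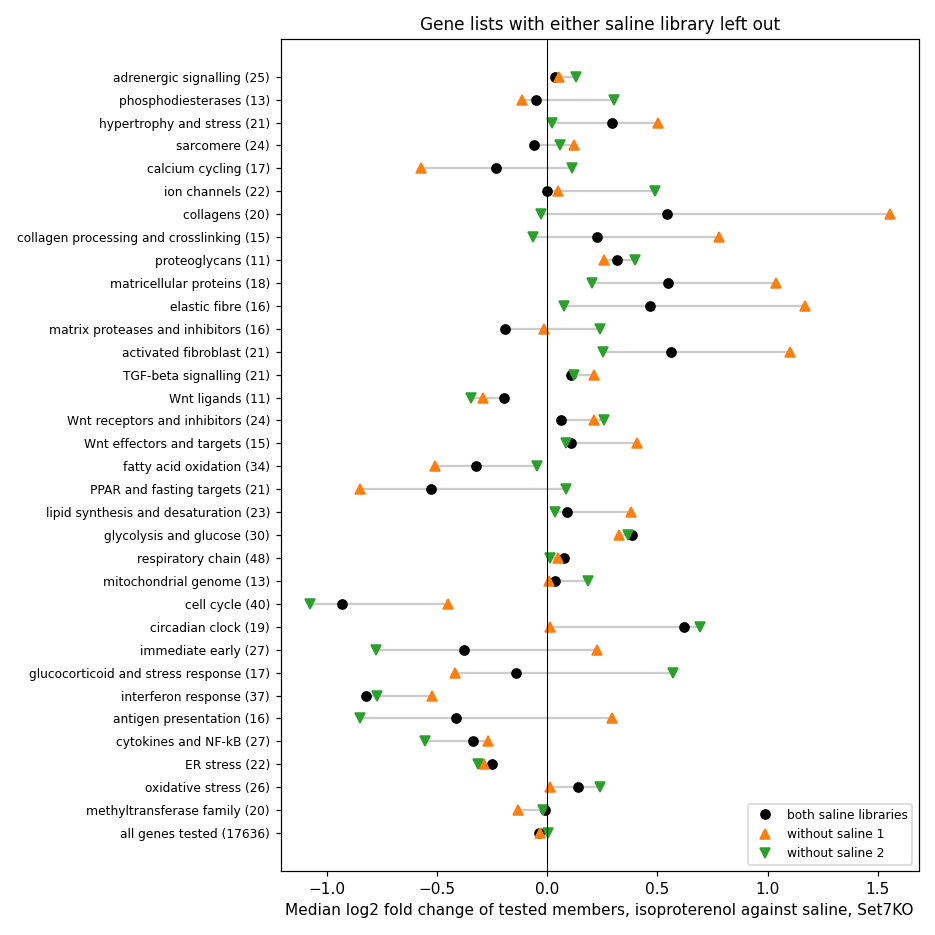
Median log2 fold change of the tested members of 33 gene lists and of all genes tested, isoproterenol against saline in the knockout, with the number of tested members in parentheses. Black circles use both saline libraries, and triangles leave out 1 of them. The collagen, matricellular and elastic fibre medians spread widely between the triangles, whereas proteoglycans, glycolysis and glucose genes, ER stress genes and adrenergic genes stayed close together.

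Fibrillar collagens in the knockout depended on which saline library was used. Col1a1, the main fibrillar collagen chain, was at 266 and 65.6 CPM under saline and 275 and 253 CPM under isoproterenol. Saline replicate 1 thus matched the isoproterenol libraries, and saline replicate 2 alone was low. The log2 fold change was 0.67 ± 0.54 with both, 2.01 without saline replicate 1 and -0.01 without saline replicate 2. Col3a1, the second fibrillar chain, repeated this pattern, at 408 and 101 CPM against 471 and 364 CPM (0.72 ± 0.54, 2.05 and 0.04). Over the 20 tested collagens the median was 0.54, or 1.55 and -0.03 without saline replicate 1 or 2, and 3 were higher and 0 lower before adjustment [19 and 0, 1 and 1]. The collagens above both saline libraries were Col14a1, a fibril-associated chain, at 17.5 and 8.63 CPM against 29 and 27.4 CPM (1.12 ± 0.33 [1.71, 0.69]), Col8a1, Col18a1 and Col1a2, with log2 fold changes of 1.16 ± 0.47 [1.96, 0.65], 1.12 ± 0.47 [2.20, 0.50] and 0.81 ± 0.40 [1.69, 0.27]. Across the collagens the WT median was -0.25.

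**Figure D3:**
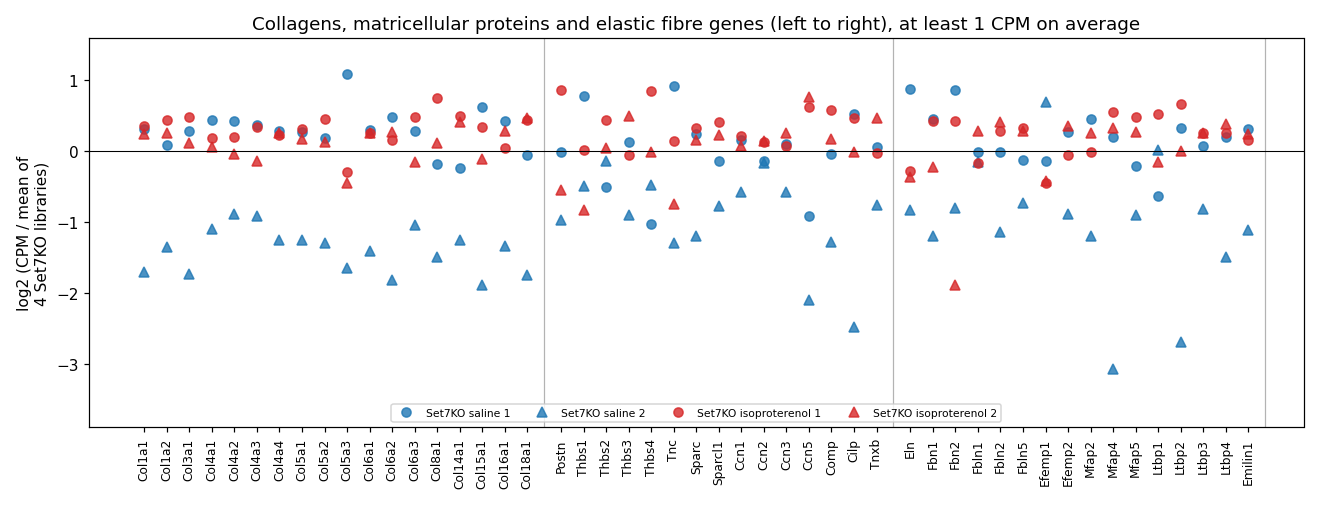
Level of each collagen, matricellular and elastic fibre gene with a mean of at least 1 CPM in the 4 knockout libraries, as log2 of the CPM over that mean. Blue symbols are saline, red isoproterenol, circles replicate 1 and triangles replicate 2. Saline replicate 2 (blue triangles) is the lowest point for most genes, as for Col1a1 at 65.6 CPM, and saline replicate 1 mostly lies with the isoproterenol libraries.

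Some matrix genes were higher than both saline libraries. Ccn5, a matricellular protein of the CCN family that opposes fibroblast activation, stood at 11.9 and 5.28 CPM under saline and 34.7 and 38.5 CPM under isoproterenol. Both isoproterenol libraries exceeded the higher saline library, with a log2 fold change of 2.09 ± 0.43, and of 1.62 without saline replicate 2. Thbs4, a thrombospondin of the stressed heart, was at 5.66 and 8.25 CPM against 20.8 and 11.5 CPM (1.21 ± 0.34), and here saline replicate 2 was the higher of the saline libraries. Thbs2, a second thrombospondin, was at 21.4 and 27.4 CPM against 41 and 31.2 CPM (0.57 ± 0.23). Loxl4, a collagen-crosslinking oxidase, was at 0.748 and 0.718 CPM against 2.80 and 1.98 CPM (1.70 ± 0.36). Lox, the founding member of that family, was at 1.17 and 1.69 CPM against 1.02 and 0.951 CPM (-0.54 ± 0.40 [-0.78, -0.24]). Postn, the matricellular marker of activated fibroblasts, overlapped between the groups at 8.68 and 4.47 CPM against 15.8 and 5.96 CPM (0.74 ± 0.55 [1.29, 0.34]). Of 18 tested matricellular genes, 4 were higher and 0 lower before adjustment [10 and 0, 3 and 1], with a median of 0.55 [1.04, 0.20]. Of 16 elastic fibre genes, 3 were higher and 0 lower before adjustment [11 and 1, 1 and 1], with a median of 0.47 [1.17, 0.08]. Mfap5 (0.90 ± 0.30 [1.28, 0.60]) and Fbln5 (0.70 ± 0.26 [1.04, 0.43]) were among the higher.

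Matrix turnover genes and proteoglycans are short lists with few members past the unadjusted threshold by count. The higher ones made up 12.5% of proteases and inhibitors and 18.2% of proteoglycans, against 3.65% of all genes. The lower ones made up 6.25% and 0%, against 6.01%. Of 16 tested proteases and inhibitors, 2 were higher and 1 lower before adjustment [5 and 3, 1 and 2]. Timp2, an inhibitor of matrix metalloproteinases, was at 116 and 84.2 CPM under saline and 157 and 157 CPM under isoproterenol (0.65 ± 0.22). Adamts1, a protease that cleaves proteoglycans, was at 40.4 and 20.7 CPM against 9.22 and 15.4 CPM (-1.31 ± 0.36 [-0.75, -1.71]), and neither gene overlapped between the groups. Of 11 proteoglycan genes, 2 were higher and 0 lower before adjustment [5 and 0, 1 and 0]. They were Acan and Prelp, a leucine-rich repeat proteoglycan, at 74.2 and 31.6 CPM against 108 and 96.3 CPM (0.95 ± 0.38 [1.69, 0.46]). Saline replicate 2 was the low library for Prelp. Among 15 genes of collagen processing and crosslinking, 1 was higher, Loxl4, and 0 lower [10 and 1, 1 and 1].

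Medians of the fibroblast and the smooth muscle and pericyte markers stayed above 0 with either saline library left out, but their size depended on which library that was. Of 21 tested activated fibroblast genes, 4 were higher and 0 lower before adjustment [11 and 0, 2 and 2], and 10 lay above both saline libraries. Their median was 0.56 [1.10, 0.25], and the 10 made up 47.6%, against 16% of all genes. For the 14 resident fibroblast markers the summed level was 3859 and 1973 CPM under saline and 4354 and 5814 CPM under isoproterenol. Saline replicate 2 was again the low library. The median of these 14 was 0.37 [0.70, 0.33], and 7 lay above both saline libraries (50%). In whole tissue, fewer cells of a type and less RNA per cell cannot be told apart. The 13 smooth muscle and pericyte markers summed to 1240.3 and 1146 CPM, against 1427 and 1311 CPM. Their median was 0.50 [0.99, 0.19], and 8 lay above both saline libraries (61.5%). The part of these cell types in the matrix values was not tested.

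Growth factor pathways of fibrosis showed few members past the unadjusted threshold by count. The higher ones made up 4.76% of TGF-beta genes and 12.5% of Wnt receptors and inhibitors, against 3.65% of all genes. The lower ones made up 4.76% and 4.17%, against 6.01%. Of 21 tested TGF-beta genes, 1 was higher and 1 lower before adjustment [4 and 4, 3 and 0]. The higher one was Bambi, and the lower one was Skil, a nuclear repressor of SMAD proteins, at 7.28 and 9.31 CPM under saline and 4.25 and 3.26 CPM under isoproterenol (-1.14 ± 0.47). Tgfb2, a ligand, was at 3.51 and 3.39 CPM against 4.52 and 2.45 CPM (0.02 ± 0.33 [0.05, -0.00168]). In the Wnt pathway, Wif1 was described above. Sfrp2, a secreted frizzled-related protein, stood at 2.28 and 0.997 CPM against 3.89 and 3.26 CPM (1.14 ± 0.42 [1.84, 0.65]), and Frzb, of the same family, at 3.80 and 1.26 CPM against 5.99 and 4.28 CPM (1.04 ± 0.49 [2.03, 0.44]). The receptor Fzd2 was at 7.05 and 2.71 CPM against 12 and 9.81 CPM (1.17 ± 0.41 [2.0, 0.63]). Of 24 tested receptors and inhibitors 3 were higher and 1 lower before adjustment [6 and 1, 1 and 2], and of 11 ligands 0 were higher and 1 lower [1 and 1, 0 and 1]. Among 15 effectors and targets, Axin2, a common readout of canonical Wnt signalling, was at 4.75 and 4.62 CPM against 7.86 and 4.72 CPM with overlapping groups (0.43 ± 0.30).

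Fatty acid genes were lower mainly against saline replicate 2. Of 34 tested fatty acid oxidation genes, 0 were higher and 3 lower before adjustment [0 and 14, 0 and 4], and 11 lay below both saline libraries. The median was -0.32 [-0.51, -0.05]. The 3 lower genes were Acot1 and Ucp3, described above, and Acot2, the mitochondrial relative of Acot1, at 80.7 and 87.3 CPM against 53.7 and 47.8 CPM (-0.73 ± 0.22). Fabp3, the fatty acid carrier of the cardiomyocyte cytosol, was at 4390.4 and 3561 CPM under saline and 2491 and 3216 CPM under isoproterenol (-0.48 ± 0.21). Among 21 targets of PPAR and fasting, 4 were lower and 1, Cidea, higher [11 and 1, 3 and 3]. Pdk4, the kinase that shuts pyruvate out of oxidation, was at 132 and 844 CPM under saline and 76.9 and 63.4 CPM under isoproterenol. Saline replicate 2 held most of this difference of -2.80 ± 0.70, which was -3.59 without saline replicate 1 and -0.91 without saline replicate 2. Plin5, the lipid droplet coat of oxidative muscle, was at 219 and 285 CPM against 153 and 164 CPM (-0.67 ± 0.23). The median of the 21 was -0.52 [-0.85, 0.09].

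Glucose metabolism pointed upward with either saline library. Of 30 tested glycolysis and glucose genes, 8 were higher (26.7%) and 3 lower before adjustment [6 and 5, 5 and 1], and 16 lay above both saline libraries (53.3%, against 16% of all genes). The median was 0.39, with 0.33 and 0.37 without saline replicate 1 or 2 and 0.30 with the offsets. Eno3, the muscle enolase, was at 3139 and 2539.9 CPM under saline and 4939.9 and 5869.5 CPM under isoproterenol (0.93 ± 0.20; edgeR adjusted p = 0.369). Gapdh was at 511 and 427 CPM against 771 and 819 CPM (0.76 ± 0.23), and both groups were tight. Pygb, a glycogen phosphorylase, was at 990.0 and 1357 CPM against 2357 and 1954 CPM (0.88 ± 0.24). Pfkfb3, which makes the activator of phosphofructokinase, was at 9.62 and 11 CPM against 22.1 and 26.9 CPM (1.25 ± 0.31). Ppp1r3b, which targets a phosphatase to glycogen, was lower, at 8.91 and 25.4 CPM against 7.29 and 3.99 CPM (-1.61 ± 0.48 [-2.17, -0.65]). Respiratory chain subunits differed little as a group, with 1 of 48 higher and 0 lower [3 and 5, 0 and 0] and a median of 0.08 [0.05, 0.01]. The higher one was Cox7a1, the muscle form of a cytochrome oxidase subunit (0.76 ± 0.27 [1.12, 0.47]).

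Interferon-stimulated genes were lower in the isoproterenol libraries. Of 37 tested, 13 were lower and 0 higher before adjustment [10 and 1, 16 and 0], and 28 lay below both saline libraries (75.7%, against 18.7% of all genes). The median was -0.82, or -0.52 and -0.77 without saline replicate 1 or 2, and -0.63 with the GC and length offsets. Interferons switch these genes on through the interferon-stimulated response element, whose core, GAAA repeated after any 2 bases, was searched on both strands from 250 bases before to 50 bases after each start site. Promoters came from the RefSeq table for GRCm38.p6, which matched 26 of the 37 genes. Of these, 17 held the letters (65.4%), as did 437 of the 11335 tested genes with a promoter in the table (3.86%). A match describes the letters and not a bound site. The 3 members with the smallest p that held it and had a mean of at least 1 CPM are shown in the direction of transcription, with all matches in the window in capitals, from chr5:120777695-120777764, minus strand, chr12:26456533-26456602, minus strand, and chr3:142559975-142560043, plus strand.
Oas3: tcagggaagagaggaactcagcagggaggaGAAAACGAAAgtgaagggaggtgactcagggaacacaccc
Rsad2: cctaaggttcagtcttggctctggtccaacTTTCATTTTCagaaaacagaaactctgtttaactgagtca
Gbp3: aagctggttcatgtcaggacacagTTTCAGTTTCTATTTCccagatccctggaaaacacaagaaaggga
The 17 members with the letters had a median log2 fold change of -0.82, and the 9 without had -0.69. Over all 11335 genes the medians were -0.15 with the letters and -0.04 without. Of the 437 with the letters, 132 lay below both saline libraries.

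Oas3, a synthetase of the antiviral 2-5A system, stood at 1.98 and 2.79 CPM under saline and 0.361 and 0.585 CPM under isoproterenol (-2.34 ± 0.59). Oas2, of the same family, was at 18.9 and 21.3 CPM against 6.32 and 8.27 CPM (-1.46 ± 0.36; -1.46 with the offsets). The 4 values of Oas2 were tight within each group. Gbp6, a guanylate-binding GTPase, was at 11.1 and 28.5 CPM against 5.39 and 4.10 CPM (-2.06 ± 0.50 [-2.58, -1.23]; -1.38 with the offsets). Rsad2, the antiviral protein viperin, was at 8.06 and 12.3 CPM against 4.31 and 3.59 CPM (-1.37 ± 0.41), and Gbp3, a relative of Gbp6, at 15.7 and 9.11 CPM against 4.10 and 7.46 CPM (-1.10 ± 0.44 [-0.66, -1.44]). Iigp1, an immunity-related GTPase, was at 6.89 and 18.3 CPM against 3.19 and 4.65 CPM (-1.69 ± 0.48 [-2.23, -0.81]). Saline replicate 2 was the higher saline library in 5 of these 6 genes, and Gbp3 was the exception. The list as a whole did not share this. Its 37 tested genes summed to 662 and 545 CPM under saline and to 382 and 441 CPM under isoproterenol. Inflammatory cytokines and NF-kB targets had 6 of 27 tested members lower and 0 higher before adjustment [7 and 3, 7 and 1]. Il1b, the inflammasome product interleukin-1 beta, was at 2.60 and 2.71 CPM against 0.783 and 0.622 CPM (-1.91 ± 0.42). The chemokine Ccl8 was at 0.748 and 6.70 CPM under saline, with saline replicate 2 far above the rest, and at 0.241 and 0.439 CPM under isoproterenol. The chemokine Ccl7 was at 1.63 and 1.67 CPM against 0.723 and 0.476 CPM (-1.45 ± 0.42).

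Proliferation genes were lower as a group. Of 40 tested cell cycle genes, 13 were lower and 1 higher before adjustment [7 and 1, 18 and 0], and 24 lay below both saline libraries (60.0%). The median was -0.93, with -0.45 and -1.08 without saline replicate 1 or 2, and the WT median was -1.05. Many genes of the late cell cycle carry the cell cycle homology region, a repressor site of the DREAM complex, whose letters TTTGAA were found in 18 of 33 members with a RefSeq promoter (54.5%) and in 1645 of all 11335 (14.5%), on either strand. Members with the letters had a median of -1.27, and those without had -0.35. Over all 11335 genes the gap was small, at -0.11 with the letters and -0.03 without. Of the 1645 with the letters, 380 lay below both saline libraries, against 18.7% of all genes tested. The 3 shown lie at chr7:135716442-135716507, minus strand, chr4:136180721-136180781, plus strand, and chr11:99024190-99024242, minus strand, with the letters in capitals.
Mki67: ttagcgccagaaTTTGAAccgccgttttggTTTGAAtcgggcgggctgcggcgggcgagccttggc
E2f2: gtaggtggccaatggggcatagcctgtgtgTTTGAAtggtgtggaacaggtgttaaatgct
Top2a: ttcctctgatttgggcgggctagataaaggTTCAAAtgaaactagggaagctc
Mki67, which encodes the proliferation antigen Ki-67, was at 2.89 and 3.09 CPM under saline and 0.482 and 0.366 CPM under isoproterenol. All 4 libraries were low, but the saline values were close together and above both isoproterenol values (-2.80 ± 0.50; edgeR adjusted p = 0.369). E2f2, a transcription factor of S phase entry, was at 2.34 and 2.59 CPM against 0.542 and 0.768 CPM (-1.91 ± 0.40). Top2a, the topoisomerase of dividing cells, was at 2.54 and 1.42 CPM against 0.693 and 0.256 CPM (-2.02 ± 0.53), and Ube2c, a ubiquitin enzyme of mitotic exit, at 2.15 and 1.75 CPM against 0.904 and 0.695 CPM (-1.27 ± 0.44).

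ER stress genes had members in both directions, with chaperones among the lower ones. Of 22 tested ER stress genes, 5 were lower and 2 higher before adjustment, and the median was -0.25. The ER stress response element, searched on both strands as CCAAT followed after any 9 bases by CCACG, is bound by ATF6 with NF-Y. It was present in 7 of 19 members with a RefSeq promoter (36.8%) and in 17 of 11335 tested genes (0.150%). Members with the element had a median log2 fold change of -0.68, against -0.000817 without it. Of all 17 genes that held it, 6 were lower and 0 higher at an unadjusted p under 0.05, 8 lay below both saline libraries, and the median was -0.59. The 7 ER stress members are among these 17. Over all genes tested, 6.01% were lower and 3.65% higher, and 18.7% lay below both saline libraries. The median of the ER stress list was -0.23 with the offsets, and the medians by element were not taken with them. The windows shown lie at chr10:86705503-86705581, minus strand, chr14:118937797-118937875, plus strand, and chr12:17266461-17266539, plus strand, with the element in capitals.
Hsp90b1: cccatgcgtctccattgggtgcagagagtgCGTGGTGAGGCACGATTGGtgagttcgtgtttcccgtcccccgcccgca
Dnajc3: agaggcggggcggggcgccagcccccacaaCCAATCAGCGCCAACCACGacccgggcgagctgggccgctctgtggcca
Pdia6: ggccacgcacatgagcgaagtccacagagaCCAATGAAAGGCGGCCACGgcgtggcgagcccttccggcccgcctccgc
Hsp90b1, the chaperone GRP94, was at 127 and 126 CPM under saline and 57.2 and 58 CPM under isoproterenol (-1.14 ± 0.20; -0.66 with the offsets). The replicates nearly coincided in both groups. Dnajc3, a co-chaperone that restrains the kinase PERK, was at 14.6 and 26.2 CPM against 11.2 and 9.04 CPM (-1.01 ± 0.31 [-1.37, -0.53]; -0.51 with the offsets). Pdia6, a protein disulfide isomerase, was at 123.1 and 108 CPM against 70.8 and 73.3 CPM (-0.68 ± 0.25). The higher members were Trib3, a pseudokinase induced by ATF4 and CHOP, at 5.27 and 3.55 CPM against 7.56 and 10.1 CPM (1.01 ± 0.30), and Chac1, a glutathione-degrading enzyme of the same branch, at 4.84 and 4.21 CPM against 7.32 and 16.1 CPM (1.37 ± 0.41).

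Clock genes were split between higher and lower, and the labels do not give the hour of collection. Dbp, an output gene that swings strongly over the day, was at 46.8 and 58.3 CPM under saline and 342 and 469 CPM under isoproterenol (2.95 ± 0.77). The WT saline libraries alone spanned 378 and 47.6 CPM, so replicates of a single group differed as widely. Nr1d1, the repressor REV-ERB alpha, was at 132 and 75.5 CPM against 248 and 227 CPM (1.20 ± 0.31), and Clock, a core activator, was lower at 6.34 and 11.5 CPM against 3.52 and 2.60 CPM (-1.54 ± 0.35; -0.85 with the offsets). Of 19 tested clock genes 5 were higher and 3 lower before adjustment [3 and 5, 6 and 4]. The part of collection time was not tested. Of 27 immediate early genes, 0 were higher and 3 lower before adjustment [5 and 1, 0 and 12], and the median was -0.38 [0.23, -0.77]. The direction of this list thus turned with the saline library used. Fos, an AP-1 subunit, rested on saline replicate 1, at 12.2 and 1.34 CPM under saline and 1.42 and 0.585 CPM under isoproterenol, and its log2 fold change was -0.40 without that library.

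Genes of stress hormones and oxidant defence were mixed. Of 17 tested genes of the glucocorticoid and stress response, 2 were higher and 2 lower before adjustment [2 and 5, 6 and 1], and the median was -0.14 [-0.42, 0.57]. Pik3ip1, an inhibitor of phosphoinositide 3-kinase, was at 50.3 and 81.7 CPM under saline and 145 and 159 CPM under isoproterenol (1.21 ± 0.27). Sgk1, a kinase induced by glucocorticoids and mineralocorticoids, was at 65.3 and 59.4 CPM against 24.1 and 45.3 CPM (-0.85 ± 0.31). Among 26 genes of oxidative stress, 2 were higher and 0 lower [4 and 2, 1 and 0]. These were Gpx1, a glutathione peroxidase, at 138 and 108 CPM against 171 and 212 CPM (0.63 ± 0.22), and Sod3, the extracellular superoxide dismutase, at 72.8 and 34.3 CPM against 90.6 and 107 CPM (0.88 ± 0.35 [1.52, 0.44]). Neither overlapped between the groups. None of 16 antigen presentation genes and none of 13 genes of the mitochondrial genome had an unadjusted p under 0.05 with all libraries, but 8 of the antigen presentation genes were lower without saline replicate 2. The antigen presentation median was 0.30 without saline replicate 1 and -0.85 without saline replicate 2.

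Relatives of Set7 were examined in a list of lysine methyltransferases that holds Setd7 itself and the demethylase Kdm1a. Of 20 tested, 0 were higher and 3 lower before adjustment [2 and 3, 0 and 1], and the median was -0.01 [-0.13, -0.02]. Dot1l, which methylates lysine in the core of histone H3, was at 129 and 97.6 CPM under saline and 48.8 and 64 CPM under isoproterenol (-1.01 ± 0.33). Both isoproterenol libraries were below both saline libraries. Ezh2, the catalytic subunit of Polycomb complex PRC2, was low in all 4 libraries, at 1.46 and 2.03 CPM against 1.02 and 0.695 CPM (-1.02 ± 0.41). Kmt2c, of the MLL family, overlapped between the groups, at 16.7 and 37.7 CPM against 17.9 and 11.9 CPM (-0.87 ± 0.38 [-1.34, -0.16]). Saline replicate 2 was the high library for Kmt2c.

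Neutrophil and erythroid transcripts were highest in saline replicate 2 among the knockout libraries. Sums here cover only the markers that were tested. The 6 tested of 11 neutrophil markers summed to 12.2 and 119 CPM under saline and 13.3 and 15.7 CPM under isoproterenol. S100a9, a calcium-binding protein abundant in neutrophils, was at 4.19 and 65.7 CPM against 6.29 and 7.14 CPM. The erythroid markers summed to 4265 and 10594 CPM under saline and 4385 and 2708 CPM under isoproterenol. Lymphocyte and platelet markers did not share this, since saline replicate 2 was the lower saline library for both. Lymphocyte markers summed to 52.9 and 31.7 CPM under saline and 40.8 and 30.4 CPM under isoproterenol, and platelet markers to 34.1 and 24.6 CPM and 19.3 and 34.9 CPM. Macrophage markers showed no such gap, at 655 and 505 CPM against 454 and 679 CPM. The part of blood in the interferon, cytokine and cell cycle values was not tested, but the medians without saline replicate 2 are given above for the interferon and cell cycle genes.

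**Figure D4:**
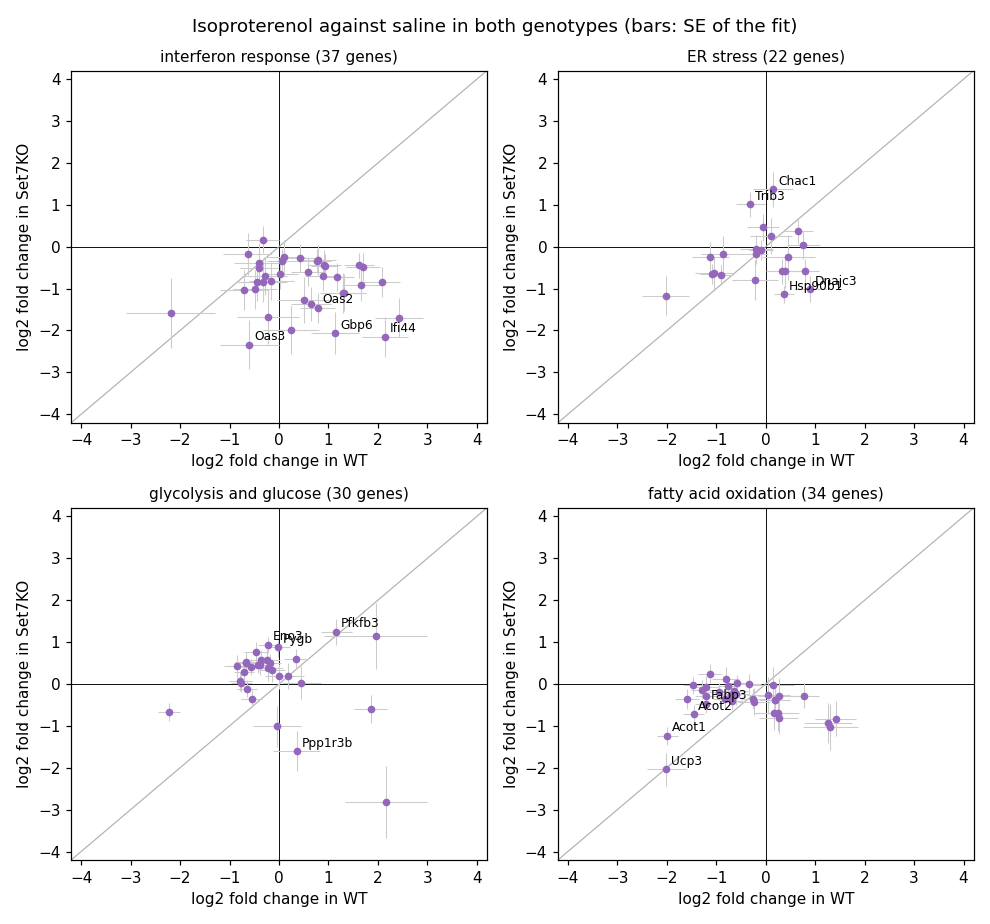
Log2 fold change of isoproterenol against saline in knockout hearts (vertical) and WT hearts (horizontal) for 4 gene lists, 1 point per tested gene, with standard errors of the fit as bars and the line of equal change in grey. Most interferon genes lie below the line, with a median of -0.82 in the knockout and 0.50 in the WT, and most glucose genes lie above it.

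Whether the knockout responded differently from the WT was tested as the interaction of genotype and treatment. No gene passed an adjusted p of 0.05 (edgeR, 0 of 17636, 0%), and the lowest adjusted p was 0.0876. At an unadjusted p under 0.05, the knockout change was more positive in 2115 genes (12%) and more negative in 3285 (18.6%). With the GC and length offsets these became 1675 and 988, so the balance between the directions turned. DESeq2 called 2274 genes, and edgeR called 5778 without saline replicate 1 and 1 without saline replicate 2. The WT isoproterenol libraries and knockout saline replicate 2 shared the low value of the GC measure, from -1.08 to -0.78, which puts genotype and library state together in this contrast. Their parts in the interaction cannot be told apart.

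The genes with the smallest interaction p were lower after isoproterenol in the knockout and higher in the WT. Mndal, an interferon-inducible gene of the p200 family, was at 3.41 and 5.06 CPM under saline and 1.14 and 1.5 CPM under isoproterenol in the knockout, and at 1.57 and 1.33 CPM under saline and 4.08 and 5.34 CPM under isoproterenol in the WT. Mndal and Ifi203, of the same family, had interactions on the log2 scale of -3.39 ± 0.49 and -4.37 ± 0.69, or -1.48 and -2.24 with the offsets. Since these genes are close relatives, reads may be split between them. Clock (-3.36 ± 0.49), Cenpj (-3.11 ± 0.47), Kctd12b (-3.07 ± 0.47), Zmym6 (-3.55 ± 0.55) and Zfp292 (-4.83 ± 0.78) were also among the 8, and each was smaller in size with the offsets. Interferon genes had an interaction median of -1.34, with 19 of 37 negative at an unadjusted p under 0.05, against 18.6% of all genes. Glucose genes had a median of 0.73 with 14 of 30 positive, against 12% of all genes. These list values were taken without the offsets, which turned the balance between the directions over all genes. The WT medians were 0.50 for the interferon genes and -0.23 for the glucose genes.

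The 30 genes with the smallest p, 15 in each direction, were also set beside the WT. In the WT, 13 of the 15 higher genes also had a log2 fold change above 0, and 9 of the 15 lower genes had one below 0. The WT median over all genes tested was 0.06. The count of 9 of 15 is close to an even split and is not read as a shared direction. Scd4 gave -2.57 ± 0.29 in the knockout and -2.76 ± 0.29 in the WT, with an interaction of 0.19 ± 0.39. Ucp3 (-2.04 ± 0.40 and -2.01 ± 0.40) and Acan (3.65 ± 0.65 and 3.07 ± 0.69) were likewise of the same sign and similar size. Ramp1 differed in sign, at 1.32 ± 0.25 in the knockout and -0.50 ± 0.24 in the WT, with an interaction of 1.81 ± 0.35 (edgeR adjusted p = 0.0876) and of 1.53 with the offsets. Cyp1a1 gave -2.03 ± 0.37 and 0.36 ± 0.36, with an interaction of -2.39 ± 0.51 that was -2.25 with the offsets. Sfpq gave -1.16 ± 0.21 and 0.12 ± 0.21, an interaction of -1.29 ± 0.30 and of -1.17 with the offsets. For Hsp90b1, by contrast, the interaction of -1.51 ± 0.28 was 0.05 once the offsets were used. Wif1 was higher in both genotypes, by 3.02 ± 0.45 in the knockout and 1.0 ± 0.43 in the WT, with an interaction of 2.02 ± 0.60 (edgeR adjusted p = 0.0979).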

How the data were processed

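The authors deposited whole-number read counts per Ensembl gene for 8 mouse heart libraries (4 groups of 2). According to the labels' protocols, TRIzol RNA was made into TruSeq stranded mRNA libraries and sequenced as single reads of 75 cycles. The submitters' processing notes name GRCm38, HISAT, HISAT2, StringTie and edgeR, without roles or versions. Totals of 27847069 to 51705705 counts per library limit precision only for genes of a few counts.

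The counts were tested with edgeR 4.0.16 (R 4.3.3) by a quasi-likelihood fit of 4 group means over all 8 libraries, with TMM scaling and its default expression filter, which kept 17636 of 55487 identifiers. The biological coefficient of variation was 28.4%. P-values were adjusted by Benjamini-Hochberg at 0.05. The procedure was checked on simulated counts. Coordinates, GC content and exonic length came from GENCODE M21 (GRCm38). The offsets are natural splines with 5 degrees of freedom on GC and length, per library. limma 3.58.1 and DESeq2 1.42.0 served as alternatives, beside other scalings, filters and single libraries left out. Sets of libraries with no overlap were judged on the CPM.

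Gene groups and comparisons were chosen with earlier results of these data known. Genes were named by fixed rules: the 15 higher and 15 lower with the smallest p, a mean of at least 2 CPM over the 4 knockout libraries and no overlap; up to 5 members of each list by smallest p, if their mean reached 1 CPM; a fixed set of cardiac and fibrosis genes; and the 8 interaction genes with the smallest p. Members shown with promoters, and Frzb, Axin2, Gapdh and other text examples outside these rules, were chosen after their values were seen. Some genes that these rules select are not reported here.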

Additional observations from a re-analysis of the deposited data

How the results depend on the processing

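No paired analysis was possible because the replicate numbers were given in accession order and tie no libraries together. In the knockout comparison, where edgeR called 0 genes with all libraries, the count was 31 without a filter, 101 by DESeq2, and 0 to 486 with a single library left out. With the offsets together with a saline library left out, combinations chosen after seeing the data, it was 0 without saline replicate 1 and 1 without saline replicate 2. At an unadjusted p under 0.05, the 644 higher genes became 322 with the knockout libraries alone, 1948 with the offsets and without saline replicate 1 (also chosen after seeing the data), and 395 to 1975 with single libraries left out. The 1060 lower genes became 1756 without a filter, 659 with the offsets, 683 with the knockout libraries alone, 595 with the offsets and without saline replicate 2, and 593 to 2651 with single libraries left out. For the interaction (0 genes), the count was 1686 without a filter, 2274 by DESeq2, 1 to 5778 with a knockout saline library left out, and 496 or 1 with the offsets and saline replicate 1 or 2 left out. For isoproterenol in the WT (0 genes), it was 2683 by DESeq2 and 3 with the offsets. The cause of these shifts was not tested. Fits with a lone saline library borrow its spread from the other groups. With single libraries left out, the log2 fold change crossed 0 and ranged for Col1a1 from -0.00585 to 2.01, Myh7 from -0.16 to 0.0851, Nppa from -0.27 to 1.04, Nppb from -1.02 to 1.54, Postn from -0.14 to 1.29 and Tgfb2 from -0.50 to 0.39. Genes given above by level only are not part of this list. Among them, the log2 fold change without saline replicate 1 or 2 was 2.28 and -1.31 for Acta1 and -1.30 and 0.20 for Atp2a2. For Pln it was -1.14 and 0.11, and for Myh6 -0.07 and 0.24. The sign turned by limma-voom for Nppb (0.26) and Tgfb2 (-0.0342). It turned with upper-quartile scaling for Tgfb2 (-0.0291). It turned with the offsets for the interaction of Hsp90b1 (0.0549). It turned with the offsets and without saline replicate 1 for Nppb (1.84) and the interaction of Hsp90b1 (0.46). It turned with the offsets and without saline replicate 2 for Myh7 (0.0741), Rgs2 (0.00949), Tgfb2 (-0.00954) and Trdn (0.17).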

Other observations

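Y-linked genes varied between libraries. The 4 tested genes (Ddx3y, Uty, Kdm5d and Eif2s3y) were detected in all 8 libraries, and Xist was at most 0.30 CPM. Ddx3y, an RNA helicase, was at 4.03 and 14.2 CPM under saline and 1.51 and 2.89 CPM under isoproterenol in the knockout, and at 3.25 and 0.762 CPM and 11.6 and 12.6 CPM in the WT. The log2 fold change was -2.06 ± 0.74 in the knockout, or -2.70 and -0.88 without saline replicate 1 or 2, and 2.60 ± 0.75 in the WT. The median over the 4 genes was -1.39 in the knockout, or -0.62 with the GC and length offsets, and 1.75 in the WT.

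Atrial transcripts varied from library to library. Myl7, the atrial regulatory light chain, was at 58 and 2.77 CPM under saline and 4.25 and 0.878 CPM under isoproterenol, and Myl4, the atrial essential light chain, at 69.6 and 5.96 CPM and 7.95 and 4.79 CPM. Saline replicate 1 was the high knockout library for both. The WT libraries held 445 and 5.30 CPM of Myl7 after saline and 0.386 and 97.1 CPM under isoproterenol. Adipocyte markers Adipoq and Plin1 were listed at 0 in both knockout isoproterenol libraries, and at 0.293 and 0.399 CPM and 0.845 and 0.140 CPM in the saline libraries. Such values are near the floor, since 3 counts corresponded to 0.0598 to 0.110 CPM. The 6 tested adipocyte markers summed to 504 and 561 CPM under saline and to 313 and 560 CPM under isoproterenol.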
